A study of Mus musculus with 24 samples.

Results

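The cytosolic heat shock proteins described here are a group of 10 genes: Hspa1a, Hspa1b and Hspa8 of the Hsp70 family, Hsph1 of the Hsp110 family, the J-domain co-chaperones Dnajb1 and Dnajb5, Hsp90aa1 and Hsp90ab1 of the Hsp90 family, the small heat shock protein Hspb1 and the co-chaperone Bag3. All probe sets with exactly 1 of these symbols in the array's probe-to-gene table were taken, which gave 23 of the 45037 probe sets tested. They covered 9 of the 10 genes, of 18193 genes with a probe set of their own: Hsp90aa1 had 5 probe sets, Hspa8 had 4, Hspa1b and Dnajb5 had 3 each, Hsph1, Dnajb1 and Hspb1 had 2 each, and Hspa1a and Bag3 had 1 each. The table gave Hsp90ab1 no probe set, and it was not analysed here.

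Transcript levels were measured on 24 arrays of RNA from brains of male mice aged 12 weeks, taken at the same time of day. Sleep-deprived mice had been kept awake by gentle handling for 6 h from light onset, and controls had been left undisturbed. There were 6 arrays of sleep-deprived pull-down, 6 of control pull-down, 4 of sleep-deprived whole brain, 4 of control whole brain and 4 of supernatant. Pull-down RNA was polyadenylated RNA precipitated through a FLAG tag from formaldehyde-fixed brain, meant to represent cells that express Homer1a, and was amplified before hybridization. Supernatant was the total RNA that such a precipitation left behind, and whole-brain RNA was total RNA of unfixed brain. The sources used here do not give the mouse strain, the promoter that drove the tag, whether the whole-brain mice carried the tag, or whether whole-brain and supernatant RNA were amplified in the same way. For 1 supernatant the labels contradict each other on sleep deprivation, so the supernatants were used as 1 group. The labels do not state that each array held RNA of a separate animal, so p-values measure only the spread between these samples.

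Heat shock proteins are molecular chaperones that bind unfolded protein and keep it from aggregating until it folds or is degraded. Hsp70 proteins do this in cycles of ATP hydrolysis that J-domain proteins start, and Hsp110 and BAG proteins end by exchanging the nucleotide. Hspa8 and Hsp90ab1 are made at all times, whereas Hspa1a and Hspa1b are the classical stress-induced pair, switched on by heat shock factor 1, which binds inverted repeats of the unit nGAAn in their promoters. In brain, chaperone genes have been described among the transcripts that respond to prolonged wakefulness.

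Promoter sequence was available for 7 of the 10 genes in RefSeq (GRCm38.p6), with no entry for Hspa8, Hsp90aa1 and Hsp90ab1. Each window, 250 bases before to 50 bases after a transcription start, was searched for a pair of inverted units, GAANNTTC or TTCNNGAA; both read the same on the other strand, and they overlap where 3 units follow each other. A window with either pair was found for 5 of the 7 genes, against 15.1% of 32851 mouse promoters. The first is a count of genes, which had 11 windows in all, and the second a share of single windows, so the measures differ. Hspa1a and Hspa1b lie next to each other on chromosome 17, and their windows were identical at 98.7% of 300 bases. They are printed with those of Hsph1, whose transcripts were among the higher readings after sleep deprivation, and Hspb1, whose were not. Each line holds the 250 bases before the start, 5′ to 3′, with the pairs in capitals.
Hspa1a: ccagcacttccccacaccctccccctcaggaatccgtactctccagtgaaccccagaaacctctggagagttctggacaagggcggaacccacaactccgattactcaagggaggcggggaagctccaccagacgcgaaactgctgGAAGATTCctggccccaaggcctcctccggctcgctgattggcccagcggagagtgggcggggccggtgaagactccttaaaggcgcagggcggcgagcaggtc
Hspa1b: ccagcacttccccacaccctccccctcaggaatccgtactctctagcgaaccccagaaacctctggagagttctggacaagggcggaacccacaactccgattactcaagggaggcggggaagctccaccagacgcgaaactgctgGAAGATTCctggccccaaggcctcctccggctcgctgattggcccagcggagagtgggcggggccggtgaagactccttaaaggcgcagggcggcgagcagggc
Hsph1: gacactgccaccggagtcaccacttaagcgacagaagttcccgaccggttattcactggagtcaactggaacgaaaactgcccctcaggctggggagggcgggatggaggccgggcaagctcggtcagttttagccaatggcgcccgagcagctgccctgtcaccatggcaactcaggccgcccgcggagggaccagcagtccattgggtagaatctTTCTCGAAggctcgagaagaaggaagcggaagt
Hspb1: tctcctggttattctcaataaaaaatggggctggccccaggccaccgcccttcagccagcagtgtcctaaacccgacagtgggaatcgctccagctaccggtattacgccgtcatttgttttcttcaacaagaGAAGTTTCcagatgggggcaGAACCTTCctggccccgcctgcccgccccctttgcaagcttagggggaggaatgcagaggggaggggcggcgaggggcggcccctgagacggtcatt

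The printed bases of Hspa1a lie at chr17:34972157-34972406 on the minus strand and those of Hspa1b at chr17:34959239-34959488 on the minus strand. Each held 1 pair, at bases -104 to -97, with the start base counted as 0. The printed bases of Hsph1 lie at chr5:149636337-149636586 on the minus strand, with a pair at -33 to -26. Hsph1 alone among the 7 genes also held 3 units in a row, TTCNNGAANNTTC at bases 36 to 48, after that start and so beyond the printed bases, where 0.603% of the promoters held 3 units in a row in either order. Hspb1, whose printed bases lie at chr5:135887669-135887918 on the plus strand, held 2 pairs, at -117 to -110 and at -97 to -90. Bag3 held 1 pair at bases 42 to 49 after its start, and the windows of Dnajb1 and Dnajb5 held neither set of letters.

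All values below are log2 intensities as deposited, so a difference of 1 is a doubling of the signal; levels are not compared between probe sets. In the plot of all 23 probe sets by array, whole-brain arrays lay close together for most of them and pull-down arrays farther apart. The median of an array's values was between 4.37 and 5.70 in pull-down, 6.04 and 6.24 in whole brain and 6.09 and 6.21 in supernatant. The 18S ribosomal RNA control read 6.83 to 11.1 in pull-down, 13.8 to 13.9 in whole brain and 14.2 to 14.4 in supernatant. The 3′ minus 5′ difference of Gapdh, a measure of RNA length, was 3.29 to 5.96 in pull-down, 2.49 to 2.95 in whole brain and 2.31 to 2.59 in supernatant. Homer1, the gene that names the pulled-down cells, exceeded its whole-brain level in pull-down by 1.16 ± 0.17 (SE; limma, adjusted p = 7.87e-07), and under both other scalings of the arrays it was 1.30 and 2.31. In the values as deposited, pull-down was lower than whole brain for 12509 of 18193 genes and higher for 2341. It was lower for 10 of 10 microglial, 9 of 9 endothelial and pericyte and 8 of 9 oligodendrocyte markers and higher for none of them, lower for 8 and higher for 1 of 10 astrocyte markers, and lower for 4 and higher for 2 of 10 neuronal markers. After each array was centred on its median, 5 of the microglial, 7 of the endothelial and pericyte, 6 of the oligodendrocyte, 4 of the astrocyte and 3 of the neuronal markers were lower, and 6 of the neuronal, 2 of the astrocyte, 1 of the microglial and 1 of the oligodendrocyte markers were higher. After quantile normalization 8 microglial, 8 endothelial and pericyte, 9 oligodendrocyte, 8 astrocyte and 5 neuronal markers were lower. Under that scaling 2 neuronal, 1 astrocyte and 1 microglial marker were higher. Of all probe sets, 18.3% were lower and 52% higher after centring, and 26.2% were lower and 32.3% higher after quantile normalization. Which transcript form of Homer1 its probe set reads is unknown here.

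**Figure D1:**
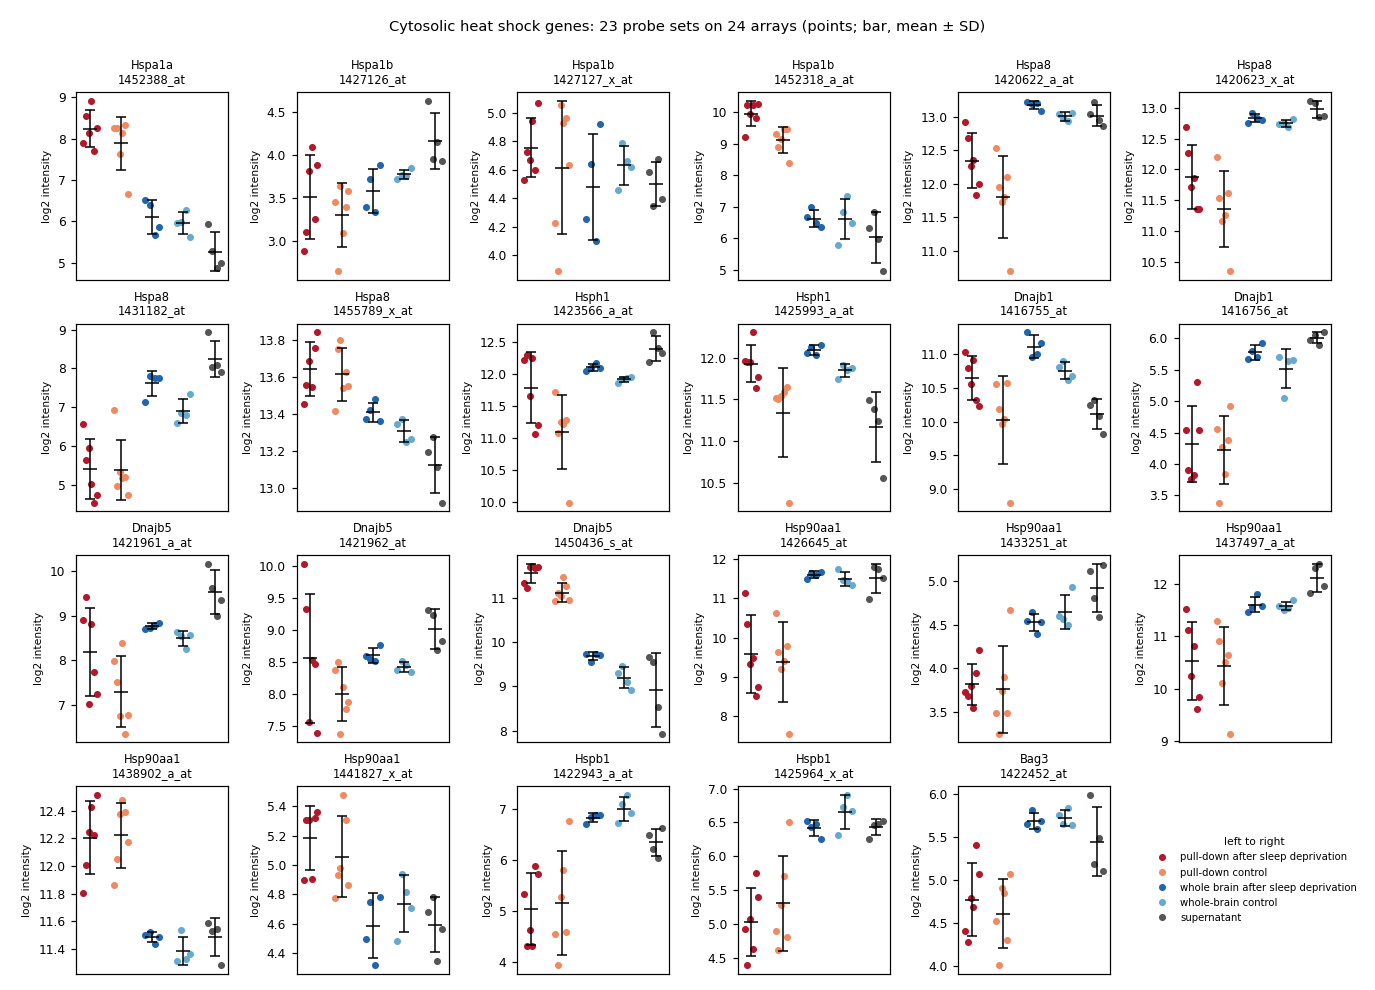
Levels of the 23 probe sets of cytosolic heat shock genes on 24 arrays. Each panel is 1 probe set with log2 intensity on its own vertical axis; points are arrays, in the 5 groups named in the legend, and bars are mean ± SD. Hspa1b (1452318_a_at), Hspa1a, Dnajb5 (1450436_s_at) and Hsp90aa1 (1438902_a_at) were higher in all 12 pull-down arrays than in any other array.

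The first question was whether sleep deprivation changed these transcripts in the RNA of Homer1a-expressing cells. The member difference with the smallest p was that of 1 of the 3 probe sets of the stress-induced Hsp70 gene Hspa1b. This probe set, 1452318_a_at, read 9.20, 9.82, 9.95, 10.22, 10.22 and 10.26 in the sleep-deprived pull-downs, against 8.39, 8.90, 9.15, 9.29, 9.46 and 9.47 in the control pull-downs. All 6 sleep-deprived arrays were above the control mean, and 1 of them, replicate 1, lay inside the control range. The difference was 0.84 ± 0.26 (SE), a 1.79-fold higher signal, with an unadjusted p of 0.00501, which did not pass after adjustment (limma, adjusted p = 1). The other probe sets of Hspa1b gave 0.20 ± 0.27 (1427126_at) and 0.14 ± 0.25 (1427127_x_at). Whether 1452318_a_at reads Hspa1b or the nearly identical Hspa1a is uncertain.

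Other members read higher in sleep-deprived pull-down without passing the test. Hsph1, which exchanges the nucleotide of Hsp70, read 11.64, 11.76, 11.95, 11.95, 11.95 and 12.30 in the sleep-deprived pull-downs by 1425993_a_at, against 10.26, 11.51, 11.51, 11.53, 11.59 and 11.64 in the controls. The difference was 0.59 ± 0.26, and that of 1423566_a_at was 0.70 ± 0.31. Dnajb1, which stimulates the ATPase of Hsp70, read 10.23 to 11.04 with a median of 10.68 in sleep-deprived pull-down by 1416755_at, against 8.80 to 10.57 with a median of 10.12 in control pull-down, a difference of 0.62 ± 0.29. Dnajb5, a J-domain protein of the same class, gave 0.90 ± 0.43 (1421961_a_at), 0.56 ± 0.39 (1421962_at) and 0.44 ± 0.21 (1450436_s_at). Dnajb1 by its other probe set, 1416756_at, gave 0.09 ± 0.31. In all of these the groups overlapped.

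Hspa8, the constitutive Hsp70, gave 0.54 ± 0.30 and 0.52 ± 0.31 by 2 of its probe sets (1420622_a_at and 1420623_x_at) but 0.02 ± 0.39 and 0.03 ± 0.20 by the others. Hspa1a gave 0.36 ± 0.31. The 5 probe sets of Hsp90aa1, the inducible Hsp90, lay between -0.02 and 0.22. Bag3, which links Hsp70 to autophagy, gave 0.16 ± 0.26, and the 2 probe sets of Hspb1, a chaperone of actin-based structures found in glia, vessels and some neurons, gave -0.12 ± 0.42 and -0.28 ± 0.33. The 95% confidence interval of Hspb1 1422943_a_at ran from -1.01 to 0.77.

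Across the group, 0 of 23 probe sets passed an adjusted p of 0.05 in pull-down (limma), as did 0% of all probe sets in either direction. At an unadjusted p under 0.05, 4 of 23 were higher (Hspa1b 1452318_a_at, both of Hsph1 and Dnajb1 1416755_at), against 0.493% of all probe sets. None was lower, against 0.462%. The 2 groups were apart in 0 of 23, with 0.0400% of all probe sets wholly higher and 0.0178% wholly lower after sleep deprivation. Of the 23, 20 lay above 0, against 39.5% of all, and their median was 0.21, against -0.05 for all probe sets. Probe sets of 1 gene share their transcript, and 4 probe sets here stand for 3 genes.

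One array weighed on the control side. Pull-down control 11 was the lowest control for Hspa1b (1452318_a_at), Hspa1a, Hspa8 (1420622_a_at), both probe sets of Hsph1, Dnajb1 (1416755_at) and Hsp90aa1 (1426645_at). Its 18S control, 6.83, was the lowest of all 24 arrays. Its median, 5.70, was the highest of the 12 pull-down arrays, and its 3′ minus 5′ difference of Gapdh, 3.29, was the smallest of them. Without it, the difference was 0.69 for Hspa1b (1452318_a_at), 0.12 for Hspa1a, 0.32 for Hspa8 (1420622_a_at), 0.37 for Hsph1 (1425993_a_at), 0.48 for Hsph1 (1423566_a_at) and 0.38 for Dnajb1 (1416755_at). The sign turned for Hsp90aa1, to -0.14 (1426645_at) and -0.17 (1437497_a_at), for Hspa8 1431182_at, to -0.11, and for Hspb1 1422943_a_at, to 0.20, while Hspb1 1425964_x_at read -0.03. Without the 2 pull-down arrays with the highest 18S signal, sleep-deprived 1 and control 3, the difference of Hspa1b 1452318_a_at was 1.02.

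**Figure D2:**
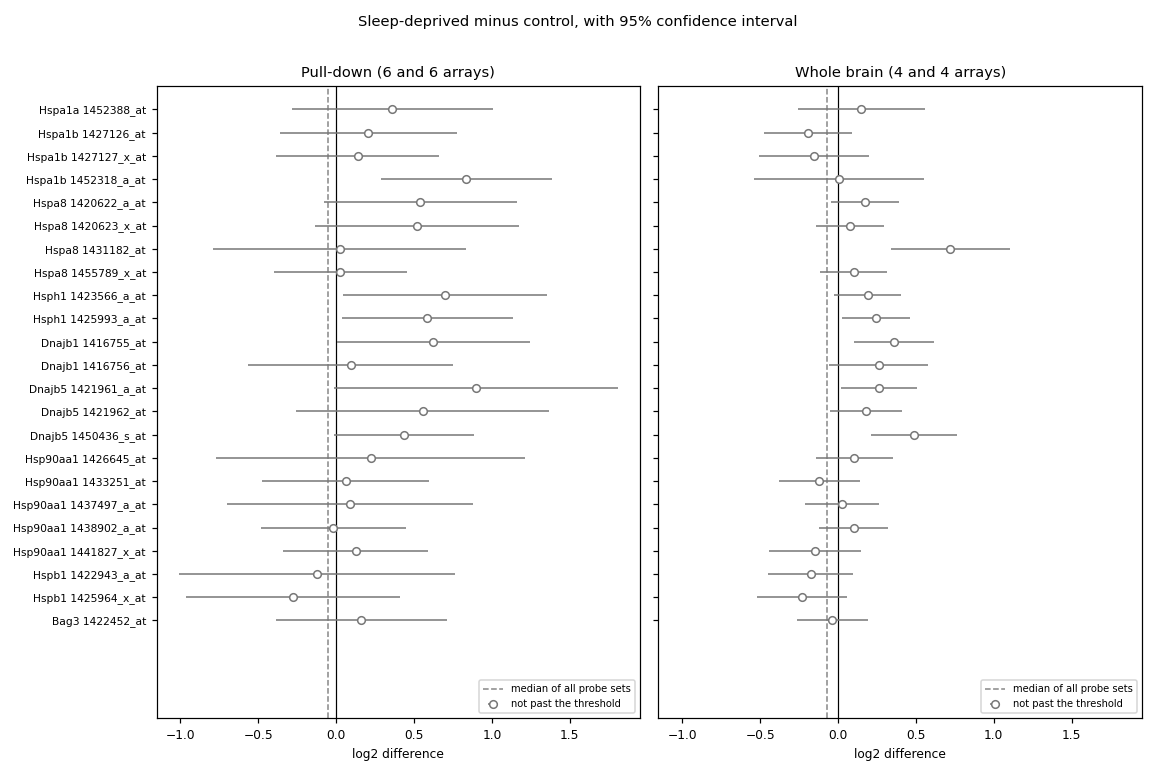
Sleep-deprived minus control log2 difference of each probe set in pull-down (left) and whole brain (right), with 95% confidence intervals; the dashed line is the median of all probe sets. All points are open because 0 of 23 passed the threshold in either extract; Hspa1b 1452318_a_at lies at 0.84 in pull-down and at 0.01 in whole brain.

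In whole brain the smallest p-values among the members were those of 1 probe set of Hspa8 and of the J-domain proteins Dnajb5 and Dnajb1. Hspa8 1431182_at read 7.14, 7.76, 7.77 and 7.81 in sleep-deprived whole brain, against 6.59, 6.80, 6.86 and 7.34 in control whole brain. The groups overlapped through 1 array each, sleep-deprived 21 at 7.14 and control 25 at 7.34. The difference was 0.72 ± 0.18, with an unadjusted p of 0.00131 (limma, adjusted p = 0.233). The other probe sets of Hspa8 gave less: 0.17 ± 0.10 (1420622_a_at), 0.08 ± 0.10 (1420623_x_at) and 0.10 ± 0.10 (1455789_x_at).

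Dnajb5 1450436_s_at read 9.54, 9.71, 9.73 and 9.74 in sleep-deprived whole brain, against 8.91, 9.10, 9.30 and 9.46 in control whole brain. The groups did not overlap, and the difference was 0.49 ± 0.13 (limma, adjusted p = 0.268). Dnajb1 1416755_at read 10.96, 10.99, 11.16 and 11.33 in sleep-deprived whole brain, against 10.62, 10.68, 10.80 and 10.90 in control whole brain. Again the groups did not overlap, with a difference of 0.36 ± 0.12 (limma, adjusted p = 0.345). Other probe sets gave 0.26 ± 0.15 (Dnajb1 1416756_at), 0.26 ± 0.11 (Dnajb5 1421961_a_at) and 0.18 ± 0.11 (Dnajb5 1421962_at).

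Hsph1 1425993_a_at read 12.03, 12.05, 12.12 and 12.15 in sleep-deprived whole brain, against 11.74, 11.85, 11.87 and 11.92 in control whole brain, a difference of 0.24 ± 0.10. Small as it was, it separated the groups, since replicates in whole brain had an SD of 0.06 and 0.07. By 1423566_a_at Hsph1 differed by 0.19 ± 0.10. Hspa1b 1452318_a_at read 6.37, 6.48, 6.66 and 6.98 in sleep-deprived whole brain, against 5.80, 6.48, 6.85 and 7.33 in control whole brain. Its difference was 0.01, with a 95% confidence interval of -0.54 to 0.55. The other probe sets of Hspa1b differed by -0.19 ± 0.13 (1427126_at) and -0.15 ± 0.16 (1427127_x_at). Hspa1a differed by 0.15 ± 0.19, Bag3 by -0.04 ± 0.11, and Hspb1 by -0.17 ± 0.13 and -0.23 ± 0.13. The 5 probe sets of Hsp90aa1 lay between -0.15 and 0.10.

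As in pull-down, 0 of 23 probe sets passed after adjustment (limma), against 0.0355% of all probe sets that were higher and 0.0111% that were lower. At an unadjusted p under 0.05, 5 of 23 were higher and 0 lower, against 2.10% and 8.83% of all. The 5 were Hspa8 1431182_at, Dnajb5 1450436_s_at and 1421961_a_at, Dnajb1 1416755_at and Hsph1 1425993_a_at. In 6 of 23 all sleep-deprived arrays lay above all controls, against 1.75% of all probe sets: both of Hsph1, 2 of Dnajb5, and 1 each of Hspa8 (1420622_a_at) and Dnajb1. None of the 23 had all sleep-deprived arrays below all controls, against 4.25% of all. The members' median was 0.10, against -0.07 for all probe sets, and 16 of 23 lay above 0, against 33.3%.

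The Hspa1b difference between extracts was tested directly. The sleep deprivation effect in pull-down minus that in whole brain was 0.83 ± 0.39 for 1452318_a_at, with a 95% confidence interval of 0.01 to 1.64 and an unadjusted p of 0.0466. It did not pass after adjustment (limma, adjusted p = 1), and 0 of 23 members did, as did 0% of all probe sets in either direction. At an unadjusted p under 0.05 it was the 1 member, against 0.200% of all probe sets in that direction, and no member was past it in the other (0.138% of all). Of the 23 differences 17 lay above 0, against 54.9% of all. The other probe sets of Hspa1b gave 0.40 ± 0.35 (1427126_at) and 0.29 ± 0.33 (1427127_x_at). For Hspa8 1431182_at the same difference was -0.70 ± 0.53, and for Dnajb1 1416755_at it was 0.26 ± 0.38.

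Between extracts the members split. Of the stress-induced pair, Hspa1a and 1 probe set of Hspa1b were higher in pull-down, as was 1 probe set of Dnajb5. Hspa1b 1452318_a_at averaged 9.53 ± 0.59 in pull-down (SD, n = 12), against 6.62 ± 0.46 in whole brain (n = 8) and 6.03 ± 0.80 in supernatant (n = 4). The lowest pull-down array, at 8.39, was above the highest whole-brain array, at 7.33. Pull-down exceeded whole brain by 2.91 ± 0.22, or 7.50-fold (limma, adjusted p = 1.09e-11), and only 15 of the 45037 probe sets had a larger difference in that direction. It exceeded supernatant by 3.50 ± 0.28.

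Hspa1a 1452388_at averaged 8.06 ± 0.56 in pull-down, against 6.04 ± 0.33 in whole brain and 5.27 ± 0.47 in supernatant. Its lowest pull-down array, control 11 at 6.67, was still above the highest whole-brain array at 6.52. The differences were 2.03 ± 0.21 from whole brain (limma, adjusted p = 2.72e-09) and 2.79 ± 0.27 from supernatant. Hspa1a and Hspa1b have nearly the same coding sequence, so which of the 2 transcripts each probe set reads is uncertain. The other probe sets of Hspa1b lay low in every extract, with means of 3.30 to 4.17 (1427126_at) and 4.48 to 4.75 (1427127_x_at), and differed from whole brain by -0.27 ± 0.17 and 0.13 ± 0.16 as deposited. Under quantile normalization and centring these were 0.40 and 0.88 for 1427126_at, and 1.09 and 1.28 for 1427127_x_at. The second passed the test under both scalings and the first after centring only.

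Dnajb5 1450436_s_at averaged 11.34 ± 0.31 in pull-down, against 9.44 ± 0.31 in whole brain and 8.92 ± 0.84 in supernatant, with no overlap between pull-down and either. It was higher by 1.91 ± 0.18 than whole brain (limma, adjusted p = 3.53e-10) and by 2.42 ± 0.22 than supernatant. The other probe sets of Dnajb5 had the opposite sign as deposited: 1421961_a_at gave -0.89 ± 0.28, which turned to 0.27 when arrays were centred on their median, and 1421962_at gave -0.24 ± 0.24, which turned to 0.37 after quantile normalization and to 0.92 after centring. Dnajb1 gave -0.60 ± 0.18 and -1.38 ± 0.19, and Hsph1 gave -0.58 ± 0.19 and -0.33 ± 0.16; after centring the first of Dnajb1 turned to 0.56 and those of Hsph1 to 0.58 and 0.82. The second of Dnajb1 (1416756_at) moved to -0.34 after quantile normalization and -0.22 after centring and no longer passed.

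Hsp90aa1 split in the same manner. By 1426645_at it averaged 9.48 ± 0.96 in pull-down, against 11.54 ± 0.14 in whole brain and 11.51 ± 0.37 in supernatant, a difference from whole brain of -2.06 ± 0.30. By 1438902_a_at it averaged 12.21 ± 0.24 in pull-down, against 11.44 ± 0.09 in whole brain and 11.49 ± 0.14 in supernatant, a difference of 0.78 ± 0.12. Over the 24 arrays these 2 probe sets of 1 gene ran against each other (Pearson r = -0.88, across extracts that differ in level). Hspa8 did likewise: 1455789_x_at gave 0.27 ± 0.11 against whole brain, which turned to -0.07 after quantile normalization, while 1420622_a_at, 1420623_x_at and 1431182_at gave -1.02 ± 0.18, -1.17 ± 0.19 and -1.86 ± 0.26, the first of which turned to 0.14 and the second moved to -0.01 after centring. As deposited and after centring, the 4 probe sets of Hspa8 had both signs, and after quantile normalization all 4 lay below 0.

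Hspb1 and Bag3 were lower in pull-down by every probe set they had, in the values as deposited. Under quantile normalization and centring Bag3 turned to 0.12 and 0.15, Hspb1 1425964_x_at moved to -0.15 and -0.22 and no longer passed, and Hspb1 1422943_a_at still passed at -0.59 and -0.66. Hspb1 1422943_a_at averaged 5.10 ± 0.84 in pull-down, against 6.91 ± 0.19 in whole brain and 6.34 ± 0.27 in supernatant, and differed from whole brain by -1.82 ± 0.27. Bag3 read 4.01 to 5.41 over the 12 pull-down arrays, against 5.59 to 5.84 in whole brain, with no overlap and a difference of -1.01 ± 0.16. The mean level of the 9 endothelial and pericyte markers was 4.90 to 5.59 in sleep-deprived and 4.88 to 5.73 in control pull-down, against 7.50 to 7.59 in sleep-deprived and 7.54 to 7.68 in control whole brain; the part of those cells in the Hspb1 and Bag3 values was not tested. In bulk RNA fewer cells of a type and less RNA per cell cannot be told apart.

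In all, pull-down exceeded whole brain for 6 of 23 member probe sets, against 8.06% of all probe sets, and was below it for 13, against 76.3%. Against supernatant 7 were higher, where 11.2% of all were, and 14 lower, where 67.4% were. The medians were -0.60 for the members and -0.78 for all probe sets against whole brain, and -0.77 and -0.85 against supernatant. All pull-down arrays lay above all whole-brain arrays in 4 of 23 (3.35% of all probe sets), namely Hspa1a, Hspa1b 1452318_a_at, Dnajb5 1450436_s_at and Hsp90aa1 1438902_a_at, and below them in 4 (27.5%). The higher call of Hsph1 1425993_a_at against supernatant (0.46 ± 0.21, adjusted p = 0.0430) was lost without supernatant 13 (0.26, adjusted p = 0.282) and also without supernatant 16, any of sleep-deprived pull-downs 3, 6 and 7, or any of control pull-downs 3, 4, 8, 9 and 13.

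**Figure D3:**
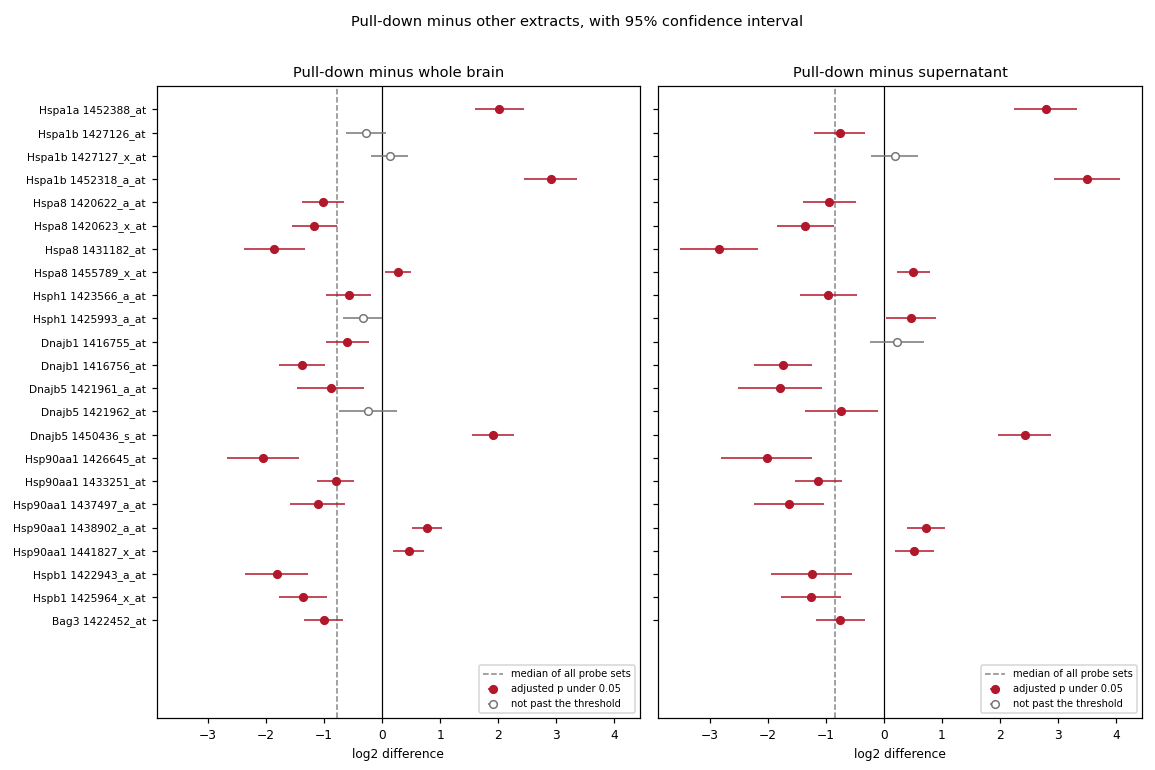
Pull-down minus whole brain (left) and pull-down minus supernatant (right), log2 difference of each probe set with its 95% confidence interval; filled points passed an adjusted p of 0.05 and the dashed line is the median of all probe sets. Hspa1b 1452318_a_at lies at 2.91 and 3.50. Hspa1b, Hspa8, Dnajb5 and Hsp90aa1 have points on both sides of 0 in both panels, and Hsph1 and Dnajb1 in the right panel only.

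Because the array medians differed between extracts, these directions depend on how the arrays are scaled. After quantile normalization of all arrays, pull-down was above whole brain for 6 members and below it for 9, against 32.3% and 26.2% of all probe sets. After each array was centred on its median, 11 were higher and 3 lower, against 52.0% and 18.3%. The median of all probe sets moved to 0.09 and 0.37 under these scalings, and that of the members to -0.15 and 0.56. Under all 3 scalings 5 members were higher and 3 lower than in whole brain at an adjusted p under 0.05. The higher ones were Hspa1b 1452318_a_at (2.91 to 4.06), Hspa1a (2.03 to 3.18), Dnajb5 1450436_s_at (1.91 to 3.06), Hsp90aa1 1438902_a_at (0.39 to 1.93) and Hsp90aa1 1441827_x_at (0.46 to 1.61). As deposited, Hsp90aa1 1441827_x_at lay low in every extract, averaging 5.12 in pull-down, 4.66 in whole brain and 4.59 in supernatant. The lower ones were Hsp90aa1 1426645_at (-2.11 to -0.90), Hspa8 1431182_at (-1.86 to -0.70) and Hspb1 1422943_a_at (-1.82 to -0.59). Against supernatant 4 stayed higher, the same without Hsp90aa1 1438902_a_at, and 2 stayed lower, Hspa8 1431182_at and Dnajb1 1416756_at. For neither comparison was the share of all probe sets that kept a call under all 3 scalings computed. Whether the members kept calls more often than other probe sets is therefore not known.

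**Figure D4:**
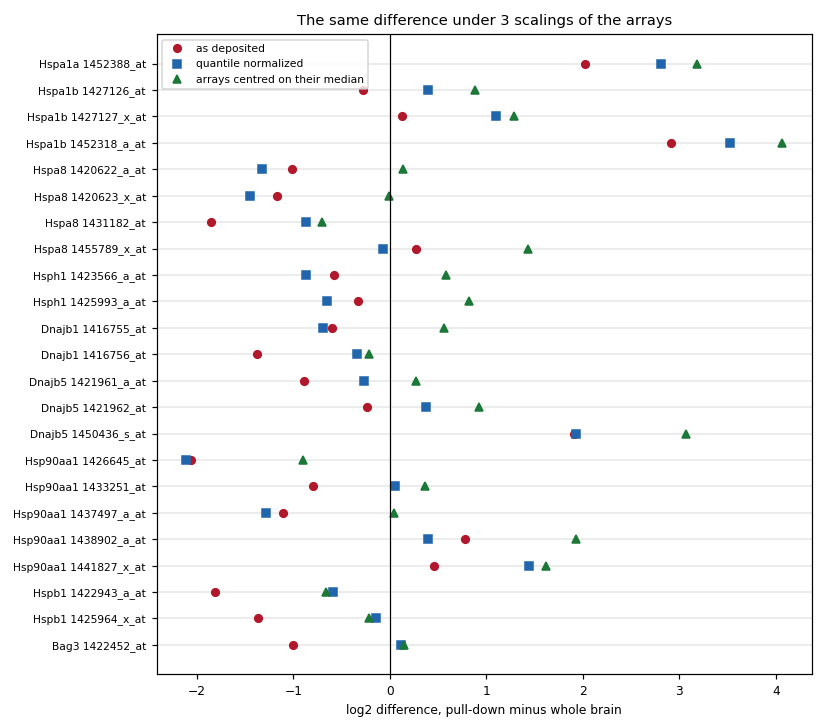
Pull-down minus whole brain log2 difference of each probe set under 3 scalings of the arrays: as deposited (circles), quantile normalized (squares) and centred on the array median (triangles). Hspa1b 1452318_a_at lies between 2.91 and 4.06, whereas Bag3 lies at -1.01 as deposited and above 0 under the others.

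Within pull-down, several members varied with the signal of the 18S ribosomal RNA control. Over the 12 pull-down arrays 23 relations to the 18S control were computed, and 6 positive and 1 negative passed after adjustment (permutation test of Pearson's r, Benjamini-Hochberg). By Spearman's rho 1 of 23 passed, Hsp90aa1 1437497_a_at (rho = 0.811, permutation test, adjusted p = 0.0499). Hspa8 1431182_at, 1 of the 6, had r = 0.740, and 0.207 without the 2 arrays farthest from the median 18S. Hsp90aa1 1426645_at rose with 18S (r = 0.838, permutation p = 0.00027, adjusted p = 0.00621; Spearman's rho = 0.762, permutation p = 0.00548, adjusted p = 0.0630). Without those 2 arrays, r was 0.681; it was 0.921 among the 6 sleep-deprived and 0.781 among the 6 control arrays. Hsp90aa1 1438902_a_at fell with 18S (r = -0.826, permutation p = 0.00124, adjusted p = 0.00951; rho = -0.636, permutation p = 0.0300, adjusted p = 0.129), with r = -0.580 without those 2 arrays and -0.893 and -0.762 within the sleep-deprived and control groups. Hspa1b 1452318_a_at gave r = -0.149 (permutation p = 0.642, adjusted p = 0.671) and rho = -0.196 (permutation p = 0.543, adjusted p = 0.594), with r = 0.0473 without the 2 arrays, and -0.647 and 0.252 within the groups. The part of 18S in the sleep deprivation differences was not tested beyond leaving out the 2 arrays above.

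**Figure D5:**
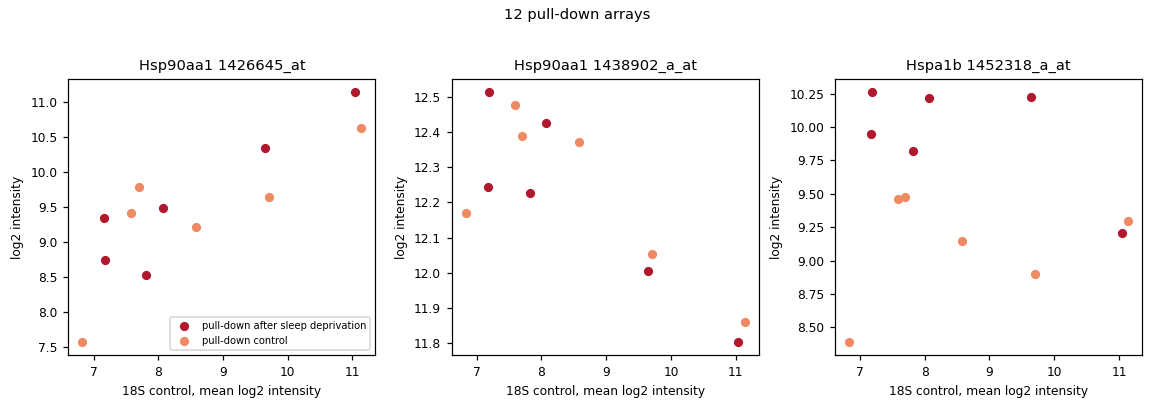
Log2 intensity of 3 member probe sets (vertical axes) against the mean log2 intensity of the 18S control (horizontal axes) in 12 pull-down arrays, 6 after sleep deprivation and 6 controls. The 2 probe sets of Hsp90aa1 have slopes of opposite sign (r = 0.838 and -0.826), and Hspa1b 1452318_a_at shows r = -0.149.

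Between whole brain and supernatant 2 members passed the test. Dnajb1 1416755_at averaged 10.93 in whole brain and 10.11 in supernatant, higher in whole brain by 0.82 ± 0.24 (limma, adjusted p = 0.0248), and Hsph1 1425993_a_at was higher by 0.80 ± 0.22 (limma, adjusted p = 0.0162). These were 2 of 23, against 8.89% of all probe sets, and 0 were lower (limma), against 2.01%. The fit also took its spread from the pull-down arrays, which lay farther apart than whole-brain arrays for most members. The 0 therefore does not show that no member was lower. All whole-brain arrays lay above all supernatants in 3 of 23 and below them in 5. The share of all probe sets apart in this way is not given here. Nothing particular to the members can be read from these counts. At an unadjusted p under 0.05, 4 members were higher and 3 lower, against 14.5% and 7.89% of all probe sets. Neither call held when the arrays were centred on their median, and both were lost without supernatant 13, with an adjusted p of 0.119 for Dnajb1 and 0.138 for Hsph1. That of Dnajb1 was also lost without supernatant 16 (adjusted p = 0.0665). Hspa1b 1452318_a_at read 0.59 ± 0.30 (limma, adjusted p = 0.241) and Hspa1a 0.77 ± 0.28 (limma, adjusted p = 0.0812), smaller than their differences between pull-down and either extract.

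The wider chaperone system was read with 1 probe set for each of 62 genes, of 65 listed. With sleep deprivation 0 of the 62 passed in pull-down and 0 in whole brain (limma), where 0 of all 18193 genes did in pull-down and 11 higher and 1 lower did in whole brain. At an unadjusted p under 0.05, 1 of 62 was higher and 0 lower in pull-down, beside 125 and 70 of 18193 genes, and 3 were higher and 1 lower in whole brain, beside 471 and 1450 of 18193. Fkbp5, a co-chaperone of steroid receptors and itself a glucocorticoid-induced gene, read 0.51 ± 0.27 in pull-down and 0.56 ± 0.12 in whole brain (limma, adjusted p = 0.175). Chordc1, an Hsp90-binding protein, read 0.82 ± 0.29 in pull-down and 0.34 ± 0.10 in whole brain. Ahsa2, of the family that activates the Hsp90 ATPase, read 0.47 ± 0.24 and 0.38 ± 0.11, and Dnajb12, a J-domain protein of the endoplasmic reticulum membrane, read -0.04 ± 0.31 and -0.42 ± 0.11. All 8 subunits of the cytosolic chaperonin lay above 0 in pull-down, with a median of 0.31, and 7 of 8 in whole brain, with a median of 0.13. The 6 other small heat shock proteins had medians of -0.21 and -0.14, with 1 of 6 above 0 in each extract. Of all 18193 genes 7984 lay above 0 in pull-down and 6682 in whole brain. Over the 62 genes the medians were 0.15 in pull-down and 0.05 in whole brain, against -0.03 and -0.05 for all genes.

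Between extracts, pull-down exceeded whole brain for 12 of the 62 and was below it for 35, where 2341 and 12509 of 18193 genes were. Of 12 other J-domain proteins 5 were higher and 3 lower, with Dnaja1, which works with Hspa8, higher by 1.85 ± 0.15 and Dnajc6, the neuronal auxilin that uncoats clathrin vesicles, by 0.99. Hspa14, an Hsp70 at the ribosome, was higher by 1.81 ± 0.16. Of 12 Hsp90 co-chaperones 3 were higher and 8 lower, with Fkbp4, an immunophilin of steroid receptor complexes, at -4.11 ± 0.24, Cdc37, which delivers kinases to Hsp90, at -2.85 ± 0.26 and Ppp5c, an Hsp90-bound phosphatase, at -2.52. Of 8 nucleotide exchange and BAG proteins 0 were higher (limma; 0 at an unadjusted p under 0.05) and 6 lower. After centring these counts were 9 higher and 0 lower for the J-domain proteins, 4 and 5 for the Hsp90 co-chaperones and 3 and 3 for the exchange and BAG proteins, and after quantile normalization they were 7 and 2, 3 and 7, and 3 and 4 in the same order. After quantile normalization the counts over the 62 genes were 22 higher and 24 lower, beside 32.3% and 26.2% of all probe sets. After centring they were 35 and 10, beside 52% and 18.3%. These shares also stand beside the counts of the 3 lists above, and are over all probe sets, not 1 a gene. Dnaja1, Dnajc6, Hspa14, Fkbp4, Cdc37 and Ppp5c kept their direction and their side of the threshold after quantile normalization and after centring, with Fkbp4 at -3.33 and -2.95 and Dnaja1 at 1.55 and 3.01. Against supernatant 22 of 62 were higher and 28 lower, where 3169 and 10682 of 18193 genes were, with Hspa14 at 2.77 and Fkbp4 at -3.15.

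Across all 24 arrays and 18184 other genes, the pattern of Hspa1b 1452318_a_at was most like those of Matn2 (Pearson r = 0.9737), Hivep3 (0.9732), Pou3f1 (0.9696), Fastkd2 (0.9690) and Drosha (0.9685). That of Hspa8 1431182_at, the member with the largest whole-brain difference, was most like Id4 (0.9604), Setdb1 (0.9559), Cbl (0.9543), Pphln1 (0.9535) and Epdr1 (0.9533). All these points share the 3 extracts and their array-wide levels.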

How the data were processed

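The authors deposited log2 intensities for each probe set and array, made with RMA and the affy package per the submitters' processing notes, with no version given. RMA corrects background, normalizes and summarizes probes. The sources used here do not give whether all extracts were normalized together, and no detection calls were used, so a low level has no bound. Values were used as deposited. Of 45101 probe sets, 64 controls were left out. The probe-to-gene table gave 34945 probe sets 1 symbol, 932 several and 9160 none, over 18193 genes.

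Groups came from the labels. The 4 supernatants were 1 group, and 24 arrays were treated as independent. Models were fitted with limma 3.58.1 in R 4.3.3 (lmFit, eBayes), two-sided, with Benjamini-Hochberg adjustment over all 45037 probe sets and a threshold of 0.05. Sleep deprivation was fitted within pull-down and within whole brain, their difference on the 20 arrays of both, and extracts in 1 fit of 24 arrays and 5 groups, each extract being the equal-weight mean of its groups. Array pairs correlated at most at 0.991, and none was identical. Precision is limited by the number of arrays. The fits were tested on simulated data with 200 changed probe sets. For sleep deprivation, a change of 1 was recovered in 7 of 100 probe sets in pull-down and 100 of 100 in whole brain. For the difference of the effects it was recovered in 6 of 100. A change of 2 was recovered in 95, 100 and 69 of 100 in the same order. Between extracts a change of 1 was recovered in 84 (pull-down and whole brain), 59 (pull-down and supernatant) and 49 (whole brain and supernatant) of 100. The simulation gave each probe set the same spread in every group of a fit. In the data, pull-down arrays lay farther apart than whole-brain arrays for most members. The rates for fits that join extracts may therefore not hold for these data.

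Every member probe set was tested and counted in each comparison, though the text does not print a value for each of them everywhere. For 65 other chaperone genes and the cell type markers, 1 probe set a gene, that with the highest mean, was used, and the text names from the 5 past the threshold with the largest differences in each direction, or, where none passed, the 3 with the smallest p. Genes most alike are the 5 with the highest Pearson r. Alternatives were quantile normalization, median centring, array weights, a filter on low values, trended robust eBayes, a 24-array fit and fits without single or doubted arrays. The members and lists were chosen with earlier results of these data known. Promoter sequences are RefSeq's. Permutation tests used 100000 resamples.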

Additional observations from a re-analysis of the deposited data

Results flagged for a closer look

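Of 115 groups of values looked at for an array far from the rest, 9 had one, where chance gives about 5.75 (1 in 20).

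Pull-down control 11 was far below the other 5 controls for Hsph1 by both probe sets, at 9.99 against 11.08 for the next array (1423566_a_at) and at 10.26 against 11.51 (1425993_a_at), and for Dnajb1 (1416755_at), at 8.80 against 9.96. Hspa8 1431182_at stood apart in 3 groups: pull-down control 3 was highest at 6.92, with the next at 5.32, whole brain after sleep deprivation 21 was lowest at 7.14, with the next at 7.76, and supernatant 15 was highest at 8.94, with the next at 8.09. Pull-down control 3 also had the highest 18S signal of the pull-down arrays.

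Whole brain after sleep deprivation 20 was lowest for Hspa8 1420622_a_at, at 13.09 with the next at 13.20. Whole brain after sleep deprivation 19 was lowest for Dnajb5 1450436_s_at, at 9.54 with the next at 9.71, and whole-brain control 24 was lowest for Dnajb1 1416756_at, at 5.05 with the next at 5.64. The causes were not tested.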

How the results depend on the processing

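In sleep deprivation and in the difference of its effects, 0 of 23 member probe sets passed under every alternative run, with 1 array left out included. Scaling changed the comparisons of extracts. Pull-down against whole brain called 11 higher and 3 lower after centring, against 52% and 18.3% of all probe sets. Turned signs there were Hspa8 1455789_x_at at -0.072, Hsp90aa1 1433251_at at 0.056, Bag3 at 0.12 and, with no call on either side, Hspa1b 1427126_at at 0.40 and Dnajb5 1421962_at at 0.37 after quantile normalization, and after centring Hspa1b 1427126_at at 0.88, Hspa8 1420622_a_at at 0.14, Hsph1 at 0.58 and 0.82, Dnajb1 1416755_at at 0.56, Dnajb5 at 0.27 (1421961_a_at) and 0.92 (1421962_at), Hsp90aa1 at 0.36 (1433251_at) and 0.044 (1437497_a_at) and Bag3 at 0.15. Pull-down against supernatant called 6 higher and 8 lower after quantile normalization, against 27.2% and 27.6% of all probe sets. After centring it called 10 higher and 2 lower, against 44.1% and 18.8%. Turned signs were Hsph1 1425993_a_at at -0.041 and Bag3 at 0.38 after quantile normalization, and after centring Hspa1b 1427126_at at 0.41, Hspa8 1420622_a_at at 0.23, Hsph1 1423566_a_at at 0.22, Dnajb5 1421962_at at 0.44, Hsp90aa1 1433251_at at 0.041 and Bag3 at 0.42. Whole brain against supernatant called 3 higher and 5 lower after quantile normalization, against 11.4% and 9.61% of all probe sets. After centring it called 0 higher and 0 lower, against 6.73% and 3.91%. It called 5 higher and 5 lower with array weights and 1 lower after the filter on low values. With 1 array left out, it called 0 to 4 higher and 0 to 1 lower, pull-down against whole brain 6 and 13 to 14, and pull-down against supernatant 6 to 7 and 13 to 14. Shares of all probe sets are not given here for array weights, the filter and the runs with 1 array left out. Scaling moves the median of all probe sets; further causes were not tested. No paired analysis was possible because the groups compared share fewer than 2 replicate numbers. The number of arrays and the spread within pull-down limit what can be seen there.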
